A study of Mus musculus with 6 samples.

Results

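The Polycomb repressor genes studied here are 10 genes chosen by name: Ezh1, Ezh2, Eed, Suz12, Jarid2 and Phf19 of Polycomb repressive complex 2 (PRC2), Rnf2, Bmi1 and Cbx7 of PRC1, and Asxl1. All 10 were listed among the 21878 genes of each library, and all 10 were among the 10620 genes that passed the filter on low values. RNA was sequenced from mouse bone marrow cells sorted as LT-HSCs, the long-lived stem cells at the top of blood formation. Mice of the SGFD group (n = 3 libraries) ate food free of serine and glycine for 3 months, and those of the CD group (n = 3 libraries) ate a control diet for the same 3 months. All mice were labelled WT, without an age, sex or strain name, and the gate kept cells negative for lineage antigens, CD34 and CD135 and positive for c-Kit and Sca1. The labels do not say whether each library came from its own mouse. The p-values therefore set the difference between diets against the spread between these libraries, which may be partly technical.

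Polycomb proteins keep developmental genes silent by modifying histones. PRC2 methylates lysine 27 of histone H3 through Ezh1 or Ezh2, held together with Eed and Suz12, while accessory subunits such as Jarid2 and Phf19 help to place the complex on chromatin. PRC1 ubiquitinates histone H2A through Rnf2, paired with a PCGF protein such as Bmi1, and in its canonical form reads the PRC2 mark through a CBX protein such as Cbx7. Asxl1 is the partner of the deubiquitinase Bap1 in the PR-DUB complex, which removes the PRC1 mark, and its human counterpart is often mutated in clonal hematopoiesis. In mice, Bmi1, Cbx7 and Ezh1 are known for sustaining self-renewal of adult blood stem cells, and the methyl groups used by PRC2 come from S-adenosylmethionine, a product of one-carbon metabolism to which serine contributes.

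For all 10 genes, the 250 bases upstream of a start annotated in RefSeq (GRCm38.p6) were taken. That start lies inside the gene's outer bounds for Ezh2, Phf19, Cbx7 and a further window of Jarid2. The windows are shown for Ezh1 and Rnf2, which were lower with SGFD, and for Suz12, which did not pass the test. Each is printed 5′ to 3′ along its gene, with CG dinucleotides, the sequence feature on which Polycomb complexes and CpG islands are known to coincide, in capitals. The windows are chr11:101226464-101226713 on the minus strand for Ezh1, chr1:151500992-151501241 on the minus strand for Rnf2 and chr11:79992856-79993105 on the plus strand for Suz12, and none of them overlaps an exon annotated in GENCODE M21.
Ezh1: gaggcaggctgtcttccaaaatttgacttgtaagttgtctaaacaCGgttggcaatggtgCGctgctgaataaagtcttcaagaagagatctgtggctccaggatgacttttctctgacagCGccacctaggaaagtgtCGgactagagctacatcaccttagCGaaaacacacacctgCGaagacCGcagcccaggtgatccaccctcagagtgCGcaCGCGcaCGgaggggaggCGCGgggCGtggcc
Rnf2: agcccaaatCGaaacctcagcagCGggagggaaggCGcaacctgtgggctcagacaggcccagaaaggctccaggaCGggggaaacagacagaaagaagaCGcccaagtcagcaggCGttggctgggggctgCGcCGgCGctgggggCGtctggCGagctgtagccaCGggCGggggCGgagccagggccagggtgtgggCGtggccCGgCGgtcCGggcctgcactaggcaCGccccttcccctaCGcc
Suz12: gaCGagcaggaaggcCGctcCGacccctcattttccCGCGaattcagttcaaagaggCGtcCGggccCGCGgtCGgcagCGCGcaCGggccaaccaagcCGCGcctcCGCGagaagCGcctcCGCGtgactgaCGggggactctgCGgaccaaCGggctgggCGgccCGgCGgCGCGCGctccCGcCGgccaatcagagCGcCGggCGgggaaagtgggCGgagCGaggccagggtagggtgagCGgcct

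The window of Ezh1 held 14 CG dinucleotides and that of Suz12 held 37, with Rnf2 between them at 20. Of the other genes that were lower, Phf19 held 31, Cbx7 23 and Asxl1 11. Of the others that did not pass, Ezh2 held 23, Bmi1 21, Eed 12, and Jarid2 23 and 22 in its windows. CG counts were not tested against the fold changes. Across the 32851 RefSeq windows of the same length, 70.6% had fewer than Ezh1, 82.1% fewer than Rnf2 and 97.8% fewer than Suz12. The E2F words TTTCCCGC and TTTGGCGC, searched on both strands, occurred once in the window of Suz12, starting at position -219 from the annotated start. They also occurred once in that of Phf19, at -208 from a start that lies inside the gene. They were not found in the windows of the other 8 genes, and 1.30% of all windows held one. The ETS word CCGGAAG occurred in the window of Asxl1 alone among the 10 genes, and in 6.91% of all windows. A match or its absence describes these letters and shows neither binding nor the lack of it.

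The libraries yielded 18687043 to 19850032 fragments each, recovered from the deposited values. These values are taken as FPKM, fragment counts scaled to gene length and library size, so that levels of different genes can be set side by side. Between 13781 and 14106 genes per library were above 0. SGFD replicates 2 and 3 stood farthest apart on the second principal component, at 10.77 and -8.90, a component that held 7.25% of the variance. The first component held 82.2% and separated the diets. Markers of other cells moved in the same libraries. Among all 10620 tested genes 41.8% were lower and 17.7% higher with SGFD (limma, adjusted p under 0.05). Of 13 tested granulocyte progenitor and neutrophil markers 11 were higher with SGFD and 1 lower, their FPKM summing to 3525 to 3903 in SGFD libraries and to 940.1 to 960.9 in CD libraries. Monocyte markers were higher in 10 of 11 cases (sums of 414.7 to 444.2 FPKM in SGFD and 241.1 to 248.9 in CD) and basophil, mast cell and eosinophil markers in 4 of 6. LT-HSC markers were lower in 12 of 14 cases, with sums of 239.7 to 247.2 FPKM in SGFD and 422.1 to 425.7 in CD. Macrophage markers were lower in 6 of 6 cases and B cell markers in 3 of 4. All 6 of these macrophage genes and 2 of the B cell genes, Cd79a and Igll1, were under 1 FPKM in every SGFD library and passed the filter through CD alone, which fixed their direction. In the same way Cd14 of the monocyte markers and Camp and Lcn2 of the granulocyte markers passed through SGFD alone. Of the other lists, erythroid markers were lower in 3 and higher in 1 of 5. T and NK cell markers split into 1 higher and 2 lower of 3, with Cd3e listed at 0 in all 6 libraries. Megakaryocyte markers split into 1 higher and 2 lower of 5, near the shares of all tested genes. Of 3 progenitor genes outside the gate 1 was higher and 2 lower. The mRNAs of the antigens that the gate excludes were abundant, with Cd34 at 428.7 ± 8.58 FPKM in SGFD and 470.7 ± 15.4 in CD, and Flt3, which encodes CD135, at 90.5 ± 3.72 and 113.7 ± 1.19 FPKM in the same order of diets. In such bulk samples fewer cells of a type and less RNA per cell cannot be told apart, and the part of these cell types in the results below was not tested.

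Ezh1, Cbx7 and Asxl1 had the lowest ratios of SGFD to CD among the 10 genes, at 0.732, 0.655 and 0.742, whereas Ezh2, at 1.01, did not pass the test. Of the 10 genes 5 fell and none rose in the test across all genes (limma, adjusted p under 0.05). Among all 10620 genes tested 41.8% fell and 17.7% rose, so the count of 5 in 10 lies near the background. Counting in either direction, 59.4% of all genes were called. The groups did not overlap for 7 of the 10 genes, all 7 lower with SGFD, against 45.5% of all tested genes without overlap in that direction, 19.6% in the other and 65.2% in either. The median log2 fold change of FPKM + 1 was -0.16 for the 10 genes and -0.13 for all tested genes. How many genes are called in each direction depends on the scaling. After median-ratio scaling 3 of the 10 were lower and 1 higher, against 26.8% and 28.8% of all tested genes (55.5% in either direction). After quantile normalization 2 were lower, against 24% lower, 21.3% higher and 45.3% in either direction. With libraries set to equal sums of FPKM all 10 were lower, against 59.6% lower, 9.74% higher and 69.4% in either direction. With the trend over transcript length removed 1 was lower and 1 higher, against 22.7% and 24.9% (47.7% in either direction). limma-voom on the recovered fragments called 6 lower, against 42.6% lower, 16.9% higher and 59.5% in either direction.

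Of the catalytic subunits of PRC2, Ezh1 fell. Ezh1, the form that prevails in resting adult cells, lies on chromosome 11 from 101191115 to 101226463 (GRCm38.p6). It had 8.93, 10.07 and 9.47 FPKM in SGFD replicates 1 to 3, against 14.0, 12.76 and 12.12 FPKM in CD replicates 1 to 3. Every SGFD library was below every CD library. The ratio of SGFD to CD means was 0.732, a log2 fold change of -0.41 ± 0.07 (SE; limma, adjusted p = 0.000926). Ezh1 kept its call in all 18 alternative fits that changed the filter, pseudocount, scaling, variance model, length correction or libraries, with adjusted p-values of 3.32e-05 to 0.0179 (limma). Its log2 fold change was smallest, -0.24, once the trend of fold change with transcript length was removed.

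Ezh2, the form that prevails in dividing cells, had 63.2, 65.3 and 64.1 FPKM in SGFD libraries, against 64.8, 61.9 and 63.7 FPKM in CD libraries. The groups overlapped, and the log2 fold change was 0.02 ± 0.04 (SE; limma, adjusted p = 0.744). Its mean over the 6 libraries exceeded that of 89.6% of tested genes, the highest level of the 10. The median gene was lower with SGFD while the summed FPKM was higher, and the direction given to Ezh2 depends on the scaling. It was called higher after median-ratio scaling (0.153; limma, adjusted p = 0.0116) and called lower when libraries were set to equal sums of FPKM (-0.125; limma, adjusted p = 0.0263).

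The balance of the 2 enzymes can be read within each library, where a factor common to all genes of that library cancels. The ratio of Ezh1 to Ezh2 FPKM was 0.141, 0.154 and 0.148 in SGFD replicates 1 to 3, and 0.216, 0.206 and 0.190 in CD replicates 1 to 3. All 3 SGFD ratios were below all 3 CD ratios. The difference was -0.465 on the log2 scale, with an exact two-sided permutation p of 0.10, the smallest that 3 against 3 libraries can give. Quantile normalization and removal of the length trend treat genes of 1 library differently, and do not cancel. As a difference of the fold changes of FPKM + 1, it was -0.43 as deposited, -0.17 after quantile normalization and -0.33 with the length trend removed. Ezh1 made up 12.9% ± 0.48 of the summed Ezh1 and Ezh2 FPKM in SGFD and 16.95% ± 0.90 in CD (SD, n = 3 each). Similar profiles were sought without symbols that are dates, are Gm followed by digits, end in Rik or occur in more than 1 row. Of the other tested genes, the 3 with a profile nearest to Ezh1 over the 6 libraries were Stau2, Sos1 and Zfp850. Their root mean square differences from Ezh1 were 0.0303, 0.0306 and 0.0308 on the log2 scale. The genes nearest to Ezh2 were Prpf4, Klf16 and Csnk1a1, at 0.0103, 0.0141 and 0.0166.

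The core subunits Eed and Suz12 moved little with the values as deposited. Eed, which binds the methylated histone tail, had 36.1, 35.4 and 33.5 FPKM in SGFD libraries and 37.3, 36.5 and 37.8 FPKM in CD libraries. The groups just failed to overlap, at a ratio of 0.941 (limma, adjusted p = 0.141). Suz12, which holds the complex together, had 47.4, 53.1 and 45.0 FPKM in SGFD libraries and 51.7, 51.9 and 52.2 FPKM in CD libraries. Here SGFD replicate 2 lay above all CD libraries and the other SGFD libraries below them. Suz12 had a log2 fold change of -0.10 (limma, adjusted p = 0.163), which became -0.165 (limma, adjusted p = 0.00849) without SGFD replicate 2. It was also called lower with array quality weights (limma, adjusted p = 0.0151). With equal sums of FPKM Eed (-0.225) and Suz12 (-0.239) were called lower (limma, adjusted p = 0.00344 and 0.00823). Neither passed after median-ratio scaling, quantile normalization or removal of the length trend.

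Of the accessory subunits, Phf19 passed the test and Jarid2 did not, and the difference between them was not tested. Phf19, a Polycomb-like protein that recruits PRC2, had 5.89, 5.78 and 4.89 FPKM in SGFD libraries and 6.87, 7.21 and 6.62 FPKM in CD libraries. It fell without overlap of the groups, by 0.28 ± 0.08 on the log2 scale (SE; limma, adjusted p = 0.0144). This call was lost after median-ratio scaling (limma, adjusted p = 0.11), quantile normalization (0.613) and removal of the length trend (0.174), and without CD replicate 2 (0.0537). Jarid2, which brings PRC2 to its targets and is itself a catalytically inactive relative of histone demethylases, had 7.59, 6.77 and 6.90 FPKM in SGFD libraries and 8.46, 7.97 and 7.36 FPKM in CD libraries. SGFD replicate 1 lay within the CD range, and Jarid2 did not pass (log2 fold change of -0.14; limma, adjusted p = 0.135). It was called higher (0.222; limma, adjusted p = 0.0466) once the length trend was removed.

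**Figure D1:**
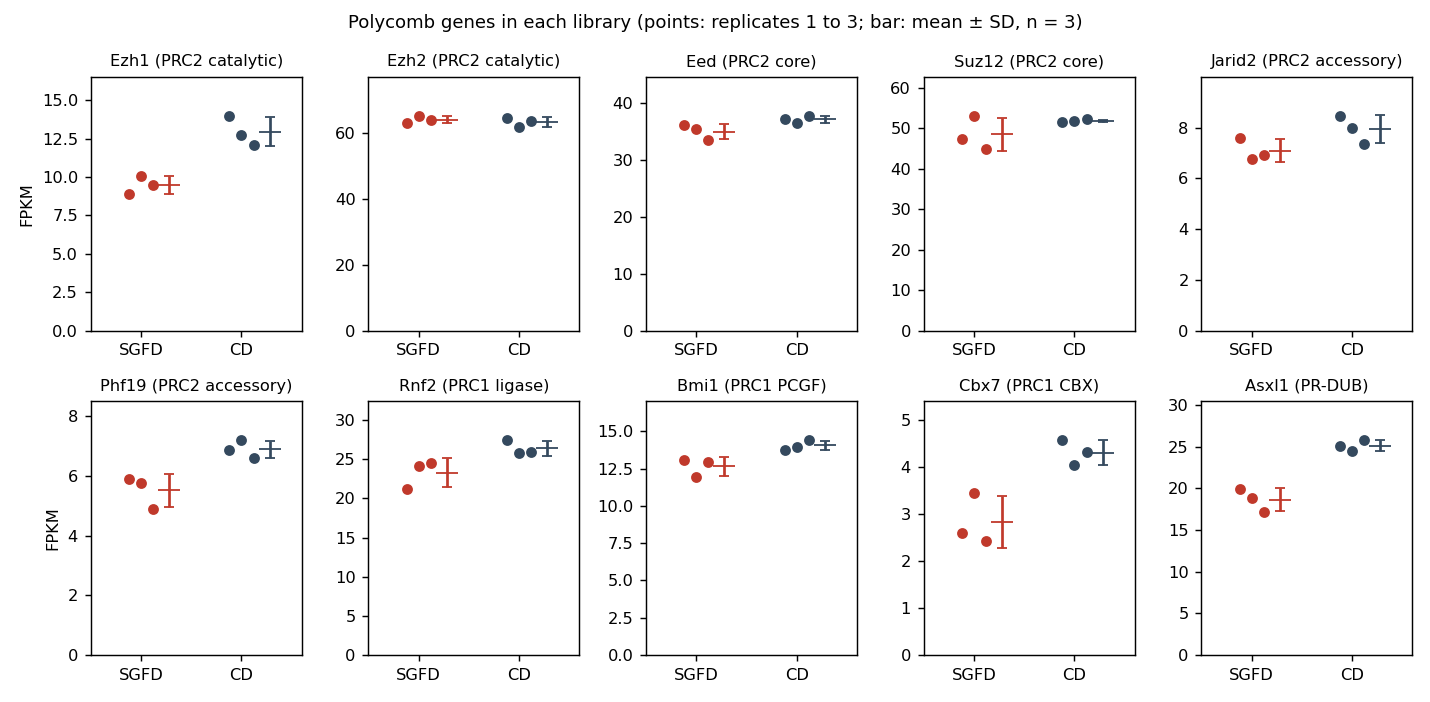
FPKM (vertical axes, each from 0) of the 10 Polycomb genes in the SGFD and CD libraries; points are replicates 1 to 3 of each diet and bars the mean ± SD. The 3 SGFD values lie below the 3 CD values for 7 genes, widely so for Ezh1, Cbx7 and Asxl1, while the diets overlap for Ezh2, Suz12 and Jarid2.

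Of the 3 PRC1 members, Cbx7 had the lowest ratio. Cbx7, the reader of the PRC2 mark, lies on chromosome 15 from 79915804 to 79971143 and had 2.59, 3.46 and 2.43 FPKM in SGFD libraries, against 4.58, 4.04 and 4.32 FPKM in CD libraries. The groups did not overlap, with SGFD replicate 2 nearest to CD. The ratio of means was 0.655 and the log2 fold change -0.48 ± 0.11 (SE; limma, adjusted p = 0.0033). Cbx7 was the lowest of the 10 genes, and its 240 to 458 recovered fragments per library give a counting SD of up to 6.5%, below the spread of 19.6% between SGFD libraries. The call held without each library in turn, at adjusted p-values of 0.000413 to 0.0162 (limma), and was lost after quantile normalization and after removal of the length trend, each at an adjusted p of 0.0864 (limma).

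Rnf2, the ubiquitin ligase also called Ring1B, had 21.2, 24.1 and 24.6 FPKM in SGFD libraries and 27.45, 25.8 and 25.9 FPKM in CD libraries. It fell by 0.175 on the log2 scale (limma, adjusted p = 0.0349), close to the median gene, with no overlap of the groups. Its call was lost in 10 of 18 alternative fits, among them those without SGFD replicate 1 (limma, adjusted p = 0.14), CD replicate 1 (0.124), CD replicate 2 (0.0559) or CD replicate 3 (0.0652) and after median-ratio scaling (0.608). Bmi1 had 13.1, 11.9 and 12.97 FPKM in SGFD libraries and 13.8, 14.0 and 14.4 FPKM in CD libraries. The groups did not overlap, yet Bmi1 did not pass (log2 fold change of -0.14; limma, adjusted p = 0.0711). The length behind the Bmi1 values, 6016 bases as recovered from them, exceeds the 3974 bases of all Bmi1 exons in GENCODE M21, so its level beside other genes is uncertain. Whether reads outside these exons were counted, which could also bear on its ratio between diets, was not tested.

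Asxl1, on chromosome 2 from 153345830 to 153404007, had 19.9, 18.9 and 17.2 FPKM in SGFD libraries, against 25.1, 24.5 and 25.8 FPKM in CD libraries. The groups were well apart. The ratio was 0.742 and the log2 fold change -0.41 ± 0.06 (SE; limma, adjusted p = 0.000314), the smallest adjusted p of the 10. Asxl1 held its call in 17 of 18 alternative fits and lost it when the length trend was removed (log2 fold change of -0.10; limma, adjusted p = 0.168).

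The order of levels was the same in both diets. From high to low it ran Ezh2, Suz12, Eed, Rnf2, Asxl1, Bmi1, Ezh1, Jarid2, Phf19 and Cbx7, with a 22.7-fold span of means in SGFD and a 14.7-fold span in CD. In CD the ranges of Rnf2 and Asxl1 overlapped, as did those of Bmi1 and Ezh1. In SGFD no neighbours overlapped, since Asxl1 and Ezh1 lay lower. Libraries of SGFD were the more variable for 7 of the 10 genes, as for all tested genes, whose median coefficient of variation was 7.0% in SGFD and 4.9% in CD. Exons of Ezh2, Eed, Suz12, Rnf2, Cbx7 and Asxl1 share 100 to 261 bases with a gene on the opposite strand. Whether the counting used strand is not given in the sources used here, so reads in those stretches cannot be assigned with certainty.

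**Figure D2:**
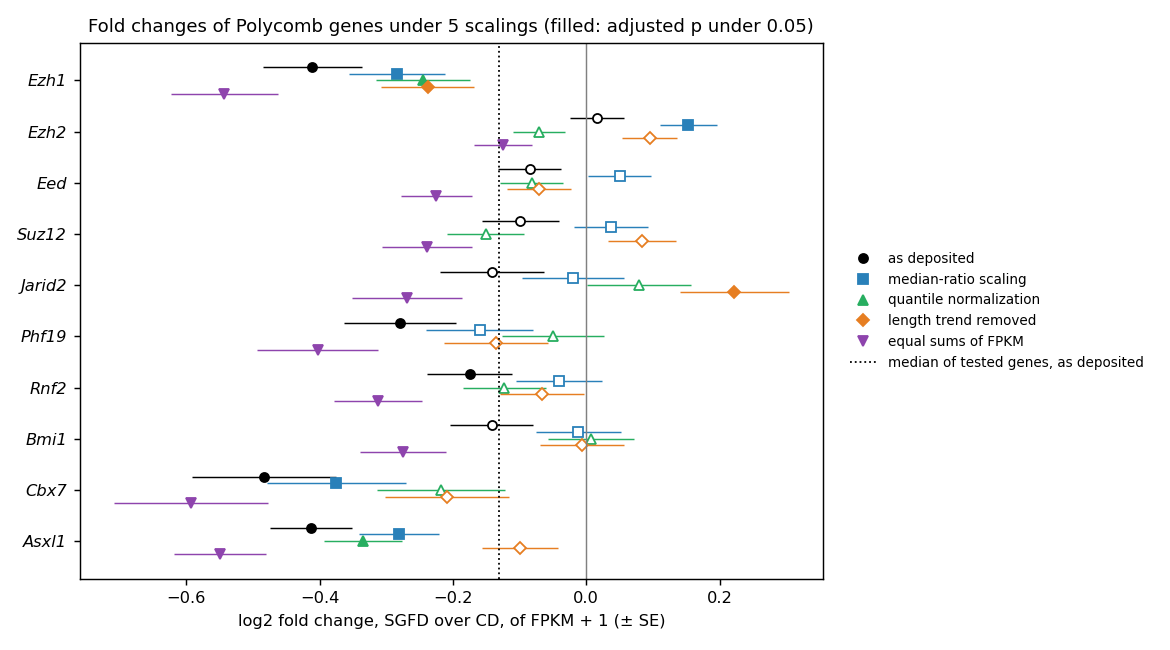
Log2 fold change of FPKM + 1, SGFD over CD, with its SE (horizontal axis) for the 10 Polycomb genes under 5 scalings; filled symbols passed an adjusted p of 0.05 and the dotted line is the median of all tested genes as deposited. Ezh1 is filled and below 0 under all 5, Asxl1 under 4 and Cbx7 under 3, while Ezh2 is called higher under one scaling and lower under another.

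Fold changes over all genes moved with transcript length. Tested genes were split into 10 bins of nearly equal size. In the bin with the shortest annotated transcripts the median log2 fold change was 0.13, and in the bin with the longest it was -0.38, where 77.3% of genes were called lower. Asxl1 and Jarid2 belong to that longest bin. Asxl1, at -0.41, lay close to its median, and Jarid2, at -0.14, above it. Ezh1 and Suz12 belong to a bin with a median of -0.17, from which Ezh1 stood lower at -0.41 and Suz12 higher at -0.10. Cbx7, at -0.48, belongs to a bin with a median of -0.29. Ezh2 lay above its bin's median of -0.07, and Bmi1, at -0.14, lay at the median of -0.14 of the bin that holds its annotated transcript. The 6016 bases behind its values would place Bmi1 in a bin with a median of -0.29 instead. The part of transcript length in these differences was not tested beyond the fit with its trend removed, in which Ezh1 was lower, Jarid2 was higher and the other 8 did not pass.

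**Figure D3:**
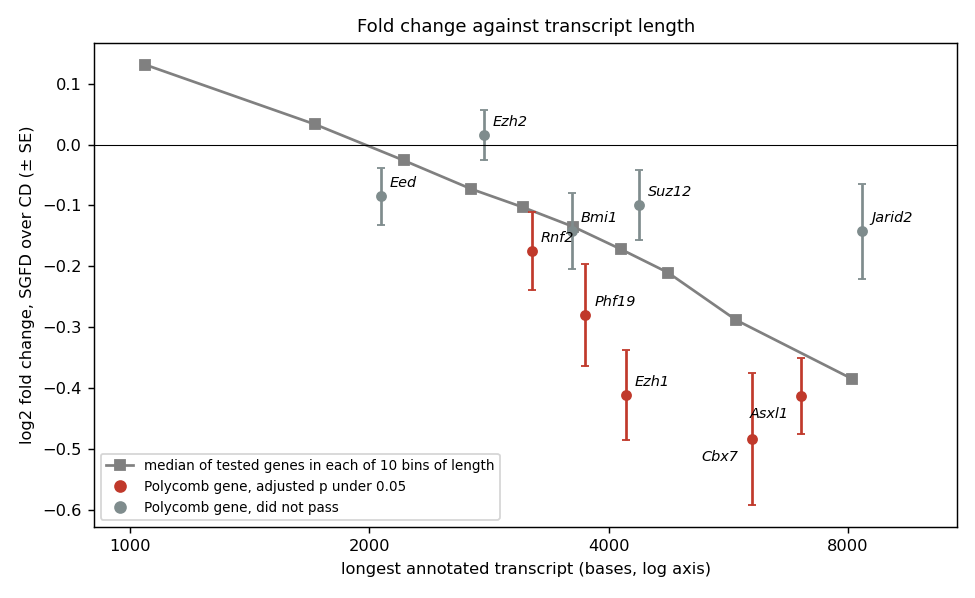
Log2 fold change, SGFD over CD, against the longest annotated transcript in bases (log axis) for the 10 Polycomb genes (points ± SE) and, as grey squares, the median of tested genes in each of 10 bins of length. The grey line falls from 0.13 to -0.38; Ezh1, Cbx7 and Phf19 lie well below it, Asxl1 slightly below it, and Ezh2, Suz12 and Jarid2 above it.

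Many subunits have paralogs that can take the same place in a complex, and their shares within a library do not change with a factor common to all its genes, although they can change with quantile normalization or a length correction. Of the CBX proteins that canonical PRC1 can use, Cbx6 fell to 15.1 ± 0.54 FPKM in SGFD, against 27.1 ± 1.17 FPKM in CD, and Cbx2 to 3.63 ± 0.30, against 6.01 ± 0.11 FPKM (limma, adjusted p = 2.52e-06 and 0.000154). Cbx8 had 2.80 and 3.28 FPKM in SGFD and CD and did not pass (limma, adjusted p = 0.179). The ratios of SGFD to CD were thus 0.557 for Cbx6, 0.604 for Cbx2 and 0.855 for Cbx8, beside 0.655 for Cbx7.

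Among the PCGF paralogs, which define the variants of PRC1, Bmi1 held 23.6% ± 1.63 of the summed FPKM in SGFD and 21.3% ± 0.20 in CD, a share that carries the doubt about the length behind its values. Pcgf5 fell to 12.9 FPKM in SGFD, against 18.3 FPKM in CD, and Pcgf3 to 6.61, against 8.97 FPKM. Pcgf1 and Pcgf2 fell as well, at ratios of 0.843 and 0.707, and Pcgf6 did not pass (limma, adjusted p = 0.281). Ring1, the paralog of Rnf2, had 16.7 and 17.0 FPKM in SGFD and CD (limma, adjusted p = 0.768). Of the Polycomb-like proteins, Phf1 fell at a ratio of 0.626 and Mtf2 at 0.759, beside 0.80 for Phf19. Aebp2, the partner of Jarid2 in PRC2, fell at a ratio of 0.849, and Asxl2 at 0.75, beside 0.742 for Asxl1. Asxl3 was listed at 0 in all 6 libraries. Asxl1 made up 79.1% ± 0.90 of Asxl FPKM in SGFD and 79.3% ± 0.78 in CD. Over the 6 shares tested by exact permutation, the smallest Benjamini-Hochberg adjusted p was 0.2, so none could pass in this design.

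**Figure D4:**
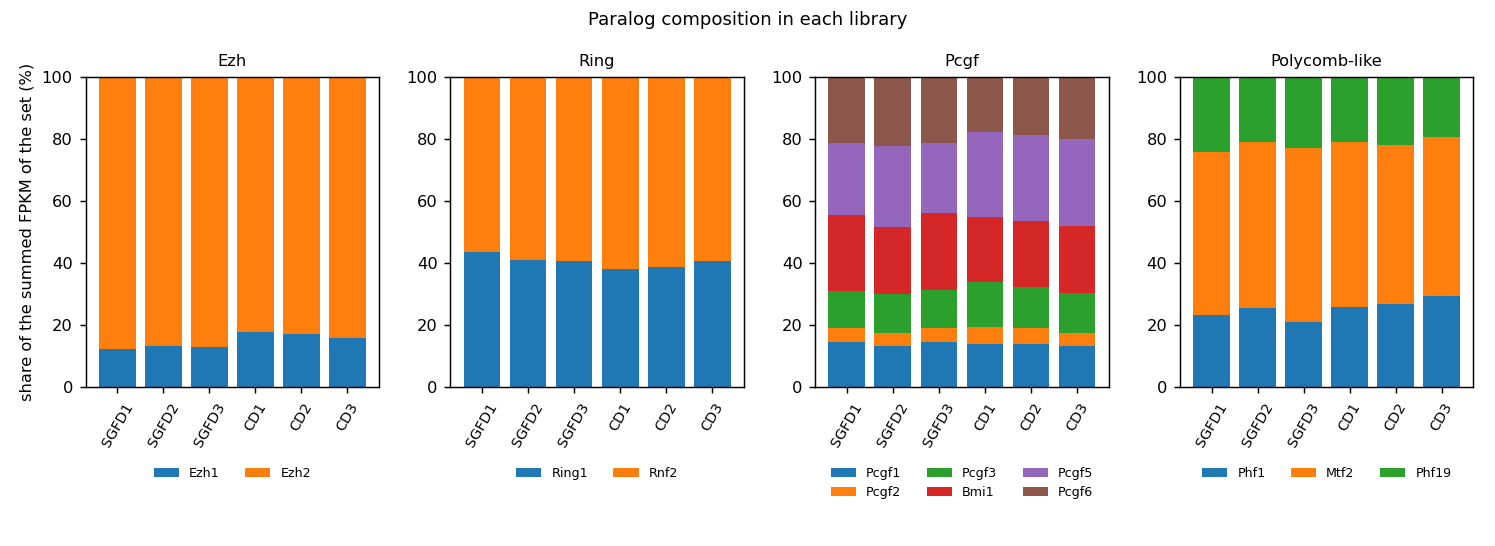
Share of the summed FPKM of each paralog set (vertical axis, %) held by each gene in each SGFD and CD library. Ezh1 takes 12.4% to 13.4% of the Ezh sum in SGFD libraries and 16.0% to 17.8% in CD libraries, and Bmi1 takes 21.7% to 24.8% of the Pcgf sum in SGFD and 21.1% to 21.5% in CD, where the length behind Bmi1 is uncertain.

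Most other Polycomb genes were lower. Of 53 listed, 49 were tested, of which 36 fell and 1 rose (limma, adjusted p under 0.05), beside 41.8% and 17.7% of all tested genes. Their median log2 fold change was -0.36, against -0.13 for all tested genes. In PRC2 5 of 8 tested genes fell, Phf1, Mtf2, Aebp2, Lcor and Lcorl, while the histone chaperones Rbbp4 and Rbbp7, at 91.5 and 191.6 FPKM in SGFD and 89.9 and 182.2 FPKM in CD, and the elongin-binding Epop did not pass. In PRC1 22 of 29 fell, of which Auts2 was under 1 FPKM in every SGFD library and passed the filter through CD alone, with Phc3, a polyhomeotic subunit, at a ratio of 0.547, Mga at 0.57, Bcorl1 at 0.575 and Dcaf7 at 0.825. In the PR-DUB list 7 of 9 fell. Ogt, the O-GlcNAc transferase, had the smallest p there, with 14.4 ± 1.09 FPKM in SGFD and 27.5 ± 2.09 FPKM in CD (limma, adjusted p = 7.35e-06), and Foxk1, Mbd5 and Hcfc1 followed by p-value. Bap1, the deubiquitinase itself, had 37.9 ± 2.17 and 40.9 ± 2.62 FPKM in SGFD and CD and did not pass (limma, adjusted p = 0.15). Once the length trend was removed, 15 of the 49 were lower and 6 higher, beside 22.7% and 24.9% of all tested genes in that fit.

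The demethylases that erase the PRC2 mark went both ways. Kdm6b had 18.9, 24.0 and 15.1 FPKM in SGFD libraries and 14.7, 14.4 and 15.85 FPKM in CD libraries. The groups overlapped, with SGFD replicate 2 highest, and the rise (log2 fold change of 0.325; limma, adjusted p = 0.0454) was lost without SGFD replicate 2 (0.133), SGFD replicate 1 (0.0949) or any CD library (0.0728 to 0.128). Kdm6a fell to 6.27 ± 1.31 FPKM in SGFD, against 8.94 ± 0.22 FPKM in CD, and its Y-linked paralog Uty to 2.44 ± 0.16, against 3.54 ± 0.37 FPKM. Neither passed once the length trend was removed (limma, adjusted p = 0.105 and 0.146).

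**Figure D5:**
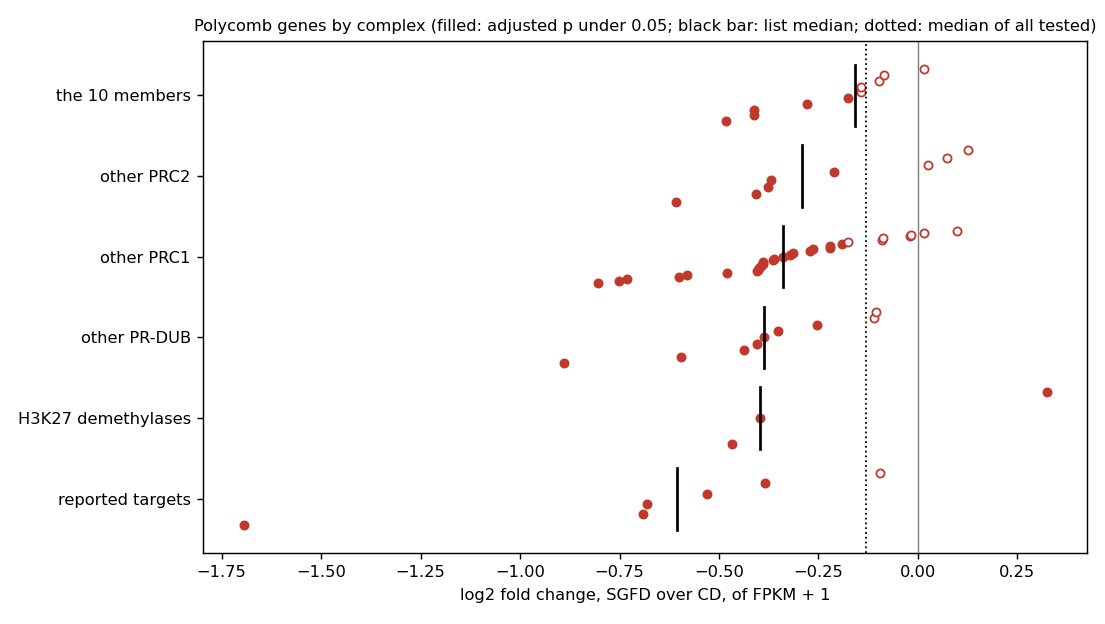
Log2 fold change of FPKM + 1, SGFD over CD (horizontal axis), of each tested gene in the 10 members, the other Polycomb genes by complex and the reported targets; filled points passed an adjusted p of 0.05, black bars are list medians and the dotted line is the median of all tested genes. Filled points lie left of 0 in each list except for Kdm6b, on the right among the H3K27 demethylases.

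Of 10 genes reported as Polycomb targets in blood cells, 4 were under the filter, 5 fell and Hoxa7 did not pass. Cdkn2a, the cell cycle inhibitor locus silenced by Bmi1 in mice, was listed at 0 in every library except CD replicate 2, at 0.047 FPKM, and Cdkn2b at 0 in all 6. The B cell factors Ebf1 and Pax5 were at most 0.047 FPKM in SGFD and between 0.253 and 0.488 FPKM in CD, under the filter. These 4 genes were not tested. Of the 6 tested targets 5 fell and none rose, beside 41.8% lower and 17.7% higher of all tested genes. Hmga2, a chromatin protein of fetal stem cells, had 0.741, 1.07 and 0.655 FPKM in SGFD libraries and 5.01, 4.53 and 5.10 FPKM in CD libraries (limma, adjusted p = 1.06e-06), and 2 of its 3 SGFD libraries were under the filter of 1 FPKM, which its CD libraries alone would have met. Hoxa9 fell to 10.9 ± 1.15 FPKM in SGFD, against 18.2 ± 1.20 FPKM in CD, and Meis1 to 22.8 ± 1.68, against 37.0 ± 1.42 FPKM. Hoxa5 and Hoxa10 fell at ratios of 0.743 and 0.607, and both lost the call after quantile normalization (limma, adjusted p = 0.151 and 0.0545). Hoxa7 had 11.3 and 12.1 FPKM in SGFD and CD and did not pass (limma, adjusted p = 0.407). Meis1 is also among the LT-HSC markers, and Ebf1 and Pax5 among the B cell markers, that were lower in the same libraries.

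Genes of dividing cells, among which Ezh2 is known to be expressed, were higher in 14 and lower in 2 of 28 cases, beside 17.7% higher and 41.8% lower of all tested genes, with sums of 2076 to 2092 FPKM in SGFD and 1933 to 1939 FPKM in CD. Pcna, the sliding clamp of replication, had 377.2 and 352.7 FPKM in SGFD and CD, Mcm7 192.0 and 160.8, and Mcm3 171.0 and 166.2, of which Pcna and Mcm7 rose and Mcm3 did not pass. Mki67 and Uhrf1 fell. These counts turn on the scaling: 21 were higher and 0 lower after median-ratio scaling, beside 28.8% and 26.8% of all tested genes. With the length trend removed 20 were higher and 0 lower, beside 24.9% and 22.7%. After quantile normalization 13 were higher and 7 lower, beside 21.3% and 24%. With equal sums of FPKM, where Pcna did not pass, 7 were higher and 8 lower, beside 9.74% and 59.6%. All FPKM summed to 464222 to 485048 in SGFD and to 427769 to 433592 in CD. The part of cell division in the ratio of Ezh1 to Ezh2 was not tested.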

How the data were processed

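Per the labels' protocols, the libraries came from a stranded mRNA kit. StringTie, HISAT2 and fastp, without version or role, and the mouse builds mm10 and GRCm38 are given by the submitters' processing notes. The deposited values name no unit and were taken as FPKM. Whole fragment numbers, to within 0.01 fragments, were found behind the deposited values of all 15509 genes above 0. A gene above 0 in only 1 library meets this by construction. Perturbed values were searched up to each gene's recovered count for 300 genes at 1 FPKM or more in all 6 libraries, and none passed. The match does not by itself settle the unit. The recovered fragments are fixed up to a whole factor per gene. A chi-square comparison per gene gave 2.81 to 12.7 between replicates, above the 1 of pure counting, so no library was a copy.

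Tests used log2(FPKM + 1) in limma 3.58.1 (R 4.3.3), with trend and robust settings, for genes at 1 FPKM or more in at least 3 libraries, two-sided, with Benjamini-Hochberg adjustment over all genes tested and a threshold of 0.05. Fold changes on this scale understate those of low genes. Single values used exact permutation over the 6 libraries (scipy 1.17.1). The fit was tested on simulated data. Transcript lengths came from GENCODE M21 (99.3% of tested genes), coordinates and promoters from RefSeq. Epop and Ezhip were read under older symbols. The members, gene lists and rule for named genes were chosen with earlier results of these data known. The text names all 10 members, their paralogs (1 of which is not reported here), up to 4 more genes per complex by p, all reported targets, and markers by level; Rbbp4, Bap1, Mki67, Uhrf1, Auts2, Cd3e, Cd79a, Cd14, Camp and Lcn2 fall outside that rule and were named after their values were seen. The counting SD covers counting error only, whereas the SEs and SDs given with ± include the spread between libraries.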

Additional observations from a re-analysis of the deposited data

How the results depend on the processing

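The count of all genes called, 6313, stayed within 1.5 times of itself under each alternative run, but its split depends on scaling: 29.7% of calls were higher as deposited, 51.8% after median-ratio scaling, 47.0% after quantile normalization, 52.3% with the length trend removed and 14.0% with equal sums of FPKM, as the median log2 fold change of all genes moved from -0.13 to -0.01, -0.02, -0.01 and -0.26. Of the 10 Polycomb genes, 0 were higher and 5 lower as deposited. Median-ratio scaling gave 1 higher and 3 lower, quantile normalization 2 lower, the length trend removed 1 higher and 1 lower, equal sums 10 lower, and a threshold of 0.01 gave 3 lower. Without each replicate 3 to 6 were lower and 0 higher, with 3 without CD replicate 2. Of the other Polycomb genes 1 was higher and 36 lower. The number higher was 0 without a filter, with equal sums, without a variance trend, with the replicate block and at 0.01, 2 with array weights or quantile normalization, 4 with median-ratio scaling and 6 with the length trend removed, and 0 to 1 without each replicate. The number lower was 43 with equal sums, 30 with median-ratio scaling, 19 after quantile normalization and 15 with the length trend removed. It was 29 to 35 without each replicate. Ezh2 was called at -0.125 with equal sums, and Jarid2 reversed to 0.222 with the length trend removed; the cause was not tested. The difference in the log2 ratio of Ezh1 to Ezh2 was -0.515 to -0.424 without each replicate and -0.428 on FPKM + 1. As the difference of the fold changes of FPKM + 1, alternatives added after seeing the data, it shrank to -0.174 after quantile normalization and -0.333 with the length trend removed; the cause was not tested. Shares of the 6 members tested moved by less than 1 SD without each replicate. Within that range the difference in the Asxl1 share, -0.21 points, changed sign. It was 0.20 without SGFD replicate 2 and 0.24 without CD replicate 2.

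Deviations of same-numbered libraries correlated at -0.007, -0.227 and -0.133, and no library correlated best with its own number. The highest correlation was 0.216, between SGFD replicate 3 and CD replicate 2. With 3 libraries per diet, these values cannot exclude a pairing of the samples. With the replicate block 5793 genes were called and 4 members were lower, Rnf2 missing at 0.0681 (limma, adjusted p). An added fit, limma-voom on the recovered fragments, was chosen after seeing the data and called 6315 genes, with 6 members lower, including Bmi1 (limma, adjusted p = 0.0345). With 3 libraries per diet, the ratios and shares could not pass 0.05 by exact permutation.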
